A study of Mus musculus with 36 samples.

Results

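Blood of FVB/NJ mice was set against blood of DBA/2J mice, as the 3 GLOBINclear arrays of FVB/NJ minus the 3 GLOBINclear arrays of DBA/2J. These are 6 of the 36 arrays of the series, chosen by strain and preparation from the array titles, and the 6 whole RNA arrays of the same 6 mice served as a check of direction. All mice were untreated inbred males aged 8 weeks, 3 per strain. Blood came from a cardiac puncture with EDTA against clotting and went into Trizol LS. Each mouse gave 2 arrays, one of whole RNA and the other of RNA of the same extract from which the GLOBINclear kit had captured alpha and beta globin mRNA. The other 24 arrays, of A/J, C3H/HeJ, C57Bl/6J and 129S1/ImJ mice, entered the estimate of the spread and showed where the 2 strains stood among 6. Values are the deposited log2 summaries of 1 probe set each, so that a difference of 1 is a 2-fold change, and values near log2 3 and below lie at the bottom of the scale.

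Blood RNA mixes the transcripts of red cells and reticulocytes, platelets, granulocytes, monocytes and lymphocytes. A difference between strains in such RNA can come with fewer cells of a type or with less RNA per cell, and bulk arrays cannot tell these apart. MHC class II molecules present peptides to CD4 T cells. They pair an alpha with a beta chain (H2-Aa with H2-Ab1, H2-Ea with H2-Eb1), the invariant chain Cd74 guides them to the endosome, H2-DM and H2-DO edit their peptides, and in blood they mark B cells and part of the monocytes. Interferon-stimulated genes follow Irf7, Irf9 and the STAT factors. As background, mouse strains differ in the MHC haplotype, and FVB/NJ (haplotype q) is among those that do not make the E alpha chain, while DBA/2J (haplotype d) makes it.

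The class II promoters are known for a shared module in which the X and Y boxes lie close to each other, and interferon-stimulated promoters for a repeated GAAA element. The 250 bases before the start of 3 class II genes and of Ifit1, an interferon-induced RNA-binding protein, are shown because the values of these genes are described below. H2-Eb1, H2-DMb2 and Ifit1 passed as lower in FVB/NJ, and H2-Aa did not pass on its brightest probe set. They come from RefSeq (GRCm38.p6, the C57BL/6J reference), so they are the sequence of neither strain, and they run 5′ to 3′ on the strand of the gene. Capitals mark the Y box core TGATTGG and the X box core AACNGATG in the class II genes, and the interferon response motif (GAAA, any 2 bases, GAAA) in Ifit1, each searched on both strands.
H2-Eb1, chr17:34305617-34305866, forward strand: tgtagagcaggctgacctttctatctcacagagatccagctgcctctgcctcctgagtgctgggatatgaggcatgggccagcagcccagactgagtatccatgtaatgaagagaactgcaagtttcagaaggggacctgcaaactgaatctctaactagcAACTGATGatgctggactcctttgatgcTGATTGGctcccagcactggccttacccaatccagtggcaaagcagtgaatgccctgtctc
H2-DMb2, chr17:34144999-34145248, forward strand: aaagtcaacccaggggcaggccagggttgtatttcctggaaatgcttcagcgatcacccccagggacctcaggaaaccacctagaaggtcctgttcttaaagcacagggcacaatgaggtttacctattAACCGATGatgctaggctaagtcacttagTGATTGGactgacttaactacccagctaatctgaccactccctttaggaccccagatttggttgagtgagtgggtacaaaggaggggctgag
H2-Aa, chr17:34287824-34288073, reverse strand: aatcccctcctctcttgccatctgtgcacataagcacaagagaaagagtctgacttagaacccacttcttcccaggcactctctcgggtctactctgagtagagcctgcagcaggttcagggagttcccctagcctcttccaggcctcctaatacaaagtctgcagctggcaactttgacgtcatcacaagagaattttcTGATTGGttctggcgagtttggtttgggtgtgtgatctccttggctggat
Ifit1, chr19:34640639-34640888, forward strand: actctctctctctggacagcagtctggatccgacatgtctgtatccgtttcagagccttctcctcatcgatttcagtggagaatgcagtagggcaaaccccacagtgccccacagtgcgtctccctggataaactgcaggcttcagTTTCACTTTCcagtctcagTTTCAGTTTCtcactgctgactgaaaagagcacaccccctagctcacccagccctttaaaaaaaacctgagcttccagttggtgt
H2-Eb1 and H2-DMb2 hold both boxes, and H2-Aa holds the letters of the Y box core alone in this window. Of 8 class II genes with a RefSeq promoter 7 held the Y box core and 4 the X box core (H2-DMb1, H2-DMb2, H2-Eb1 and H2-Eb2), against 7.23% and 1.98% of all 32851 promoters. The interferon motif was in 15 of 37 interferon-stimulated genes with a promoter, against 2.98% of all promoters. The motifs were chosen with these sequences in view, and a match is a description of the letters.

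The blood label held in both strains. In GLOBINclear RNA the platelet chemokine Ppbp averaged 12.93 in FVB/NJ and 12.84 in DBA/2J, while 9 tested markers of cardiac and skeletal muscle, which a heart puncture could bring in, averaged 3.17 to 3.67 on the FVB/NJ arrays and 3.33 to 3.39 on the DBA/2J arrays, near the bottom of the scale. FVB/NJ replicate 2 stood apart from its group. Its GLOBINclear array correlated at 0.966 and 0.969 with the other FVB/NJ arrays, which correlated at 0.988, and the DBA/2J arrays correlated at 0.986 to 0.988. Over the red cell membrane and cytoskeleton genes it averaged 8.09, against 7.24 and 7.23 for the other FVB/NJ arrays and 7.52, 7.005 and 7.63 for the DBA/2J arrays. Globin probe sets (7) averaged 10.05 to 10.11 on the FVB/NJ and 9.59 to 9.79 on the DBA/2J GLOBINclear arrays, so the strains did not overlap in remaining globin signal. On the whole RNA arrays they averaged 11.28 to 11.33 in FVB/NJ and 10.94 to 11.20 in DBA/2J, again without overlap. The gap between 3' and 5' control probe sets was 0.90 to 1.21 in FVB/NJ and 1.14 to 1.51 in DBA/2J. Whether remaining globin or this gap has a part in the results was not tested.

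In GLOBINclear RNA, 545 of 22518 tested probe sets differed between FVB/NJ and DBA/2J (limma, adjusted p under 0.05), which is 2.42%. Of these, 312 were higher and 233 lower in FVB/NJ, and 422 differed at least 2-fold (235 higher, 187 lower). By gene, 267 of 11353 were called (2.35%), 159 of them higher (1.40%) and 108 lower (0.951%). Arrays of the strains did not overlap in any of the 267 called genes, and they did not overlap in 19.8% of all genes tested (8.39% with FVB/NJ higher, 11.4% with FVB/NJ lower). Among the 15 pairs of strains in the series the count was the sixth from the lowest, between 259 probe sets (1.15%) for A/J against C3H/HeJ and 1434 (6.37%) for 129S1/ImJ against FVB/NJ. Without FVB/NJ replicate 2, 499 probe sets were called, and 11 of the 43 genes named by rule lost their call (4 to 12 did over the 6 choices of array). Without DBA/2J replicate 1, 2 or 3, the counts were 356, 296 and 352, and without DBA/2J replicate 2 the count at 2-fold or more was 251. For 146 of the 267 genes neither strain lay outside the range of all other arrays. For 61 genes (48 higher, 13 lower) the 3 FVB/NJ arrays lay beyond all other GLOBINclear arrays, for 58 (25 higher, 33 lower) the 3 DBA/2J arrays did, and for 2 both did.

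Part of the class II genes was lower in FVB/NJ blood. Of 12 genes in the list 10 were tested, all 10 had their FVB/NJ arrays below their DBA/2J arrays without overlap (11.4% of all genes tested did so), and 3 passed the test as lower, against 0.951% of all genes. The median difference of the 10 was -2.04, and that of all genes was -0.02. H2-Eb1, the beta chain of the E molecule, read 3.47, 3.27 and 3.59 in FVB/NJ, against 8.49, 9.03 and 9.02 in DBA/2J. The FVB/NJ arrays lay at the bottom of the scale, below every array of the other strains, whose means ran between 6.28 in A/J and 8.47 in C57Bl/6J. The difference was -5.41 ± 0.68 (SE, adjusted p = 0.000242), 42.4-fold on this scale. H2-Ea, the alpha chain that pairs with it, read 3.47, 3.41 and 3.65 in FVB/NJ, against 6.36, 6.64 and 6.23 in DBA/2J, a difference of -2.90 ± 0.26 (adjusted p = 6.94e-06). Here it was DBA/2J that lay beyond the other 15 GLOBINclear arrays. The other strains averaged 3.23 in 129S1/ImJ, 3.27 in C57Bl/6J, 3.76 in A/J and 4.16 in C3H/HeJ, near FVB/NJ at 3.51. Whether low values on this probe set go with a missing E alpha chain was not tested. A second H2-Ea probe set differed by -5.72 (adjusted p = 2.05e-09) and another by -0.02. Whether sequence differences under the probes have a part in these values, or in those of any other gene here, was not tested.

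H2-DMb2, a beta chain of the peptide editor H2-DM, read 3.71, 2.98 and 2.97 in FVB/NJ, against 6.76, 7.32 and 7.06 in DBA/2J, and differed by -3.82 ± 0.65 (adjusted p = 0.00372). The FVB/NJ arrays again lay below all other GLOBINclear arrays. Another H2-DMb2 probe set was lower by -3.90 (adjusted p = 0.000675), and a further one differed by -1.25 without passing (adjusted p = 0.169). In whole RNA the brightest H2-DMb2 probe set differed by -1.65 and did not pass (adjusted p = 0.315). The chains of the A molecule and the invariant chain did not pass the test. H2-Ab1 read 6.15, 4.38 and 5.03 in FVB/NJ, against 7.07, 7.59 and 7.41 in DBA/2J (difference -2.17, adjusted p = 0.0756). Cd74 read 8.33, 7.07 and 7.42 in FVB/NJ, against 9.40, 9.98 and 9.68 in DBA/2J (-2.08, adjusted p = 0.093). H2-Aa differed by -1.83 (adjusted p = 0.237) and H2-Ob, the beta chain of H2-DO, by -1.996 (adjusted p = 0.056). H2-DMa, H2-Oa and Ciita, the coactivator of the class II promoters, differed by -1.51, -1.49 and -0.46, none past the threshold. Replicate 1 was the highest FVB/NJ array for all 7 of these genes. Other probe sets passed for H2-Aa (-2.98, adjusted p = 0.0191) and Ciita (-0.97, adjusted p = 0.0426). H2-Eb2 was too dim to be tested, and H2-DMb1 has no probe set to itself.

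Whole RNA gave the same direction for all 10 class II genes, without overlap for 7. It called 3 lower (H2-Ea, H2-Eb1 and H2-Ob), against 0.352% of all genes. The list median there was -1.61, against 0.04 over all genes. The share of all genes without overlap in whole RNA is not given here. H2-Eb1 read 3.96, 3.80 and 3.25 in FVB/NJ, against 7.11, 7.77 and 6.88 in DBA/2J (difference -3.58, adjusted p = 0.0387). With any single FVB/NJ or DBA/2J array left out, 3 or 4 class II genes were called in GLOBINclear RNA, and the list median then lay between -2.37 and -1.79. Averaged over the 10 genes, the FVB/NJ arrays read 4.96, 4.17 and 4.43, against 6.54, 7.17 and 6.95 on the DBA/2J arrays. The plot of the class II genes shows both preparations array by array.

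**Figure D1:**
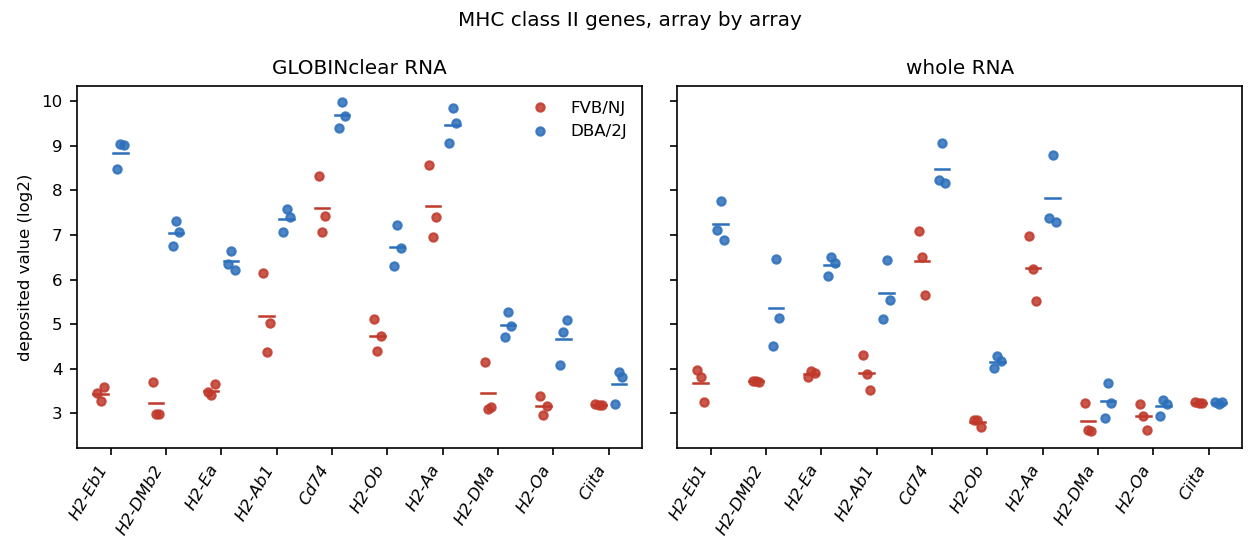
Deposited log2 values of the 10 tested MHC class II genes on each array of FVB/NJ (red, left of each pair) and DBA/2J (blue, right), with the mean of 3 arrays as a line, in GLOBINclear and whole RNA. In GLOBINclear RNA every FVB/NJ array lies below every DBA/2J array for all 10 genes, with H2-Eb1 at 3.27 to 3.59 in FVB/NJ and 8.49 to 9.03 in DBA/2J.

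Some markers of B cells, the main class II cells of blood, were lower in FVB/NJ as well. Of 23 tested markers 5 passed as lower and 0 as higher (against 0.951% and 1.40% of all genes), 15 did not overlap with FVB/NJ below DBA/2J (background 11.4%), and the list's median difference was -1.32. Cd22, an inhibitory coreceptor of the B cell receptor, read 4.73, 3.96 and 4.47 in FVB/NJ, against 6.50, 7.08 and 7.05 in DBA/2J (-2.49 ± 0.55, adjusted p = 0.0227). Fcmr, the receptor for the Fc part of IgM, read 6.10, 4.95 and 5.43 in FVB/NJ, against 7.13, 8.03 and 7.87 in DBA/2J (-2.18 ± 0.46, adjusted p = 0.0178). Replicate 2 was the lowest FVB/NJ array for both genes, and the closest arrays of the strains stayed over 1 apart in log2. Cr2, the complement receptor CD21 of mature B cells, read 3.50, 3.10 and 3.16 in FVB/NJ, against 4.45, 4.74 and 4.59 in DBA/2J (-1.34 ± 0.21, adjusted p = 0.0019). The other strains averaged 3.16 to 3.64 for Cr2, so the 3 DBA/2J arrays stood above all others. The other called markers, Fcer2a (the low-affinity IgE receptor CD23) and Ralgps2 (a guanine nucleotide exchange factor for Ral GTPases), differed by -1.62 (adjusted p = 0.0458) and -1.45 (adjusted p = 0.0364), and are named here after their values were seen.

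The signalling chain Cd79b read 6.90, 5.52 and 5.80 in FVB/NJ, against 7.71, 8.15 and 8.32 in DBA/2J (-1.99, adjusted p = 0.155). Ms4a1, which encodes CD20, differed by -1.79 (adjusted p = 0.219) and the IgM heavy chain Ighm by -1.65 (adjusted p = 0.428), and neither passed. Cd24a, which red cells carry too, differed by 0.07. B cell marker levels averaged 5.54, 4.72 and 4.93 on the FVB/NJ arrays, against 6.02, 6.43 and 6.35 on the DBA/2J arrays. The count of 5 was 1 with arrays centred on the spike-in controls, and it rests on single arrays: it was also 1 without FVB/NJ replicate 2, FVB/NJ replicate 3, DBA/2J replicate 2 or DBA/2J replicate 3, and in each of these cases Cr2 kept its call while Cd22 and Fcmr lost theirs (adjusted p between 0.0628 and 0.0995). The part of B cell content in the class II values, and the reverse, was not tested. In whole RNA 21 of 23 B cell markers were lower in FVB/NJ, 12 without overlap. The list median there was -0.67, against 0.04 over all genes, and the share of all genes without overlap is again not given. Fcmr passed in whole RNA (-2.20, adjusted p = 0.0424), while Cr2 was at 3.14 in FVB/NJ and 3.10 in DBA/2J.

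T cell, NK cell, neutrophil and monocyte markers gave no call in limma (0 of 24, 0 of 26, 0 of 21 and 0 of 29), with 0, 1, 6 and 4 genes at an unadjusted p under 0.05. Neutrophil markers had a median difference of -0.61, with 9 of 21 lower in FVB/NJ without overlap (background 11.4%). S100a9, a calcium-binding protein abundant in neutrophils, read 7.45, 7.63 and 8.79 in FVB/NJ, against 9.83, 10.42 and 9.86 in DBA/2J, a difference of -2.08 that did not pass (adjusted p = 0.194). Csf3r, the receptor for G-CSF, differed by -1.88 (adjusted p = 0.207). Monocyte markers had a median of -0.23 with 9 of 29 lower without overlap, and T cell markers a median of -0.14 with 3 of 24. Cd3e, a chain of the T cell receptor complex, read 5.28, 5.28 and 5.32 in FVB/NJ, against 5.30, 5.92 and 5.26 in DBA/2J, and the strains overlapped. NK markers had a median of 0.00. Klrd1, which encodes the NK receptor subunit CD94 and is known to be defective in DBA/2J, averaged 4.14 in FVB/NJ and 2.54 in DBA/2J, below all other arrays, and did not pass (adjusted p = 0.15).

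Ms4a4b, a membrane protein of T cells in the Ms4a family, read 3.38, 3.30 and 3.37 in FVB/NJ, against 8.09, 9.36 and 9.04 in DBA/2J, and the other strains averaged 7.48 to 9.34. FVB/NJ was thus the strain at the bottom of the scale, at -5.48 ± 0.55 from DBA/2J (adjusted p = 2.36e-05) in GLOBINclear RNA and at -3.75 (adjusted p = 0.00252) in whole RNA. It was the sole call of 10 tested Ly6 and Ms4a genes (0.951% of all genes passed as lower). All 10 were lower in FVB/NJ (6841 of all 11353 genes were), 6 without overlap (background 11.4%). The list median was -1.02. The T cell marker list gave no call. Itga4, the alpha chain of the leukocyte integrin VLA-4, read 2.90, 2.44 and 2.98 in FVB/NJ, against 6.41, 6.50 and 6.67 in DBA/2J (-3.75 ± 0.35, adjusted p = 1.33e-05). Its probe sets disagree: another was higher in FVB/NJ by 1.00 (adjusted p = 0.00783), and 2 more differed by -0.84 and -0.03 without passing, so no direction holds for the gene as a whole.

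**Figure D2:**
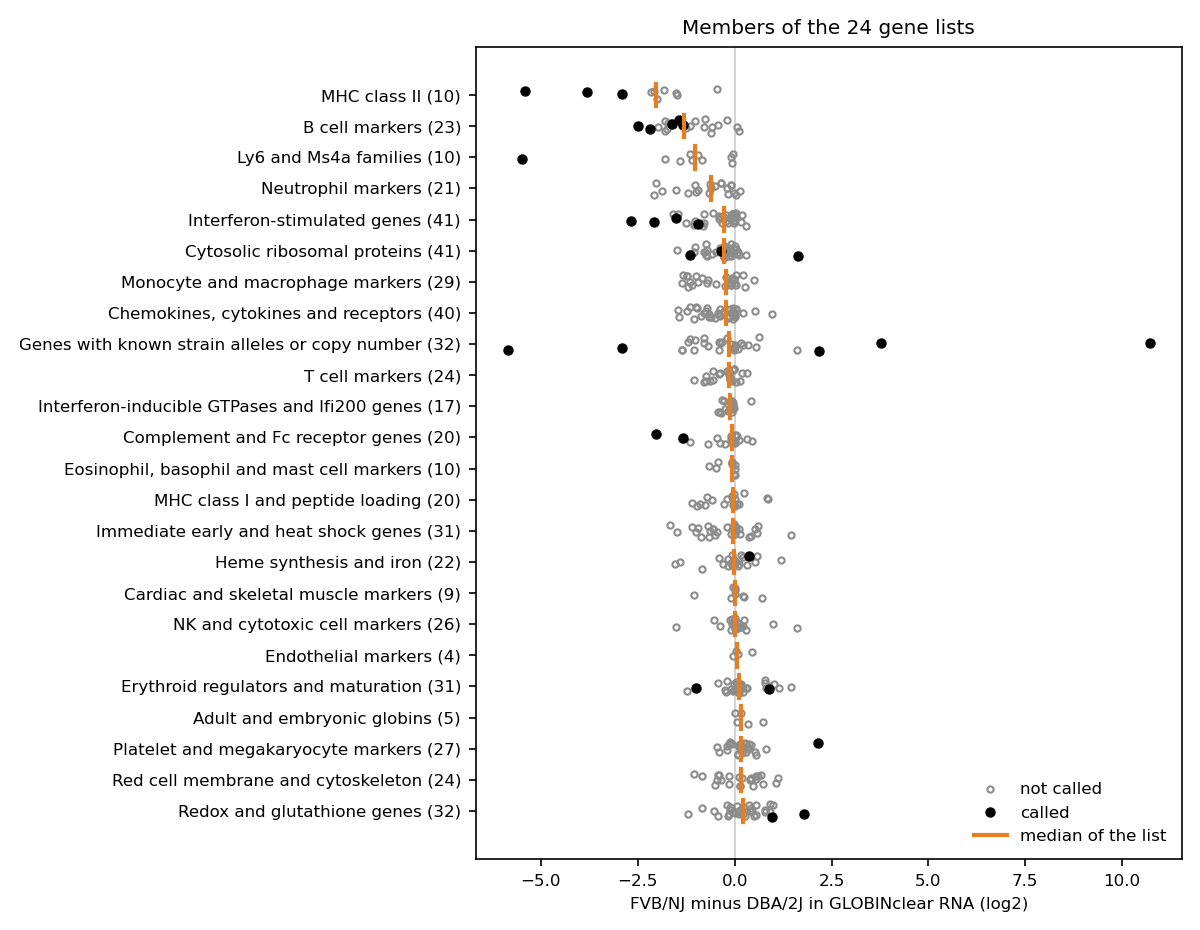
Difference between FVB/NJ and DBA/2J in GLOBINclear RNA (log2, positive where FVB/NJ is higher) for every tested member of the 24 gene lists, with the number tested in brackets. Filled points passed limma at an adjusted p under 0.05, open points did not, and the orange bar is the list's median, lowest for MHC class II at -2.04 and B cell markers at -1.32.

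Interferon-stimulated genes leaned lower in FVB/NJ. Of 41 tested, 4 passed as lower and 0 as higher (background 0.951% and 1.40%), 17 lay lower without overlap (background 11.4%), and the median difference was -0.28. Irf7, the transcription factor that amplifies type I interferon production, read 3.83, 4.70 and 4.04 in FVB/NJ, against 6.95, 6.32 and 7.32 in DBA/2J. The strains did not overlap, and the difference was -2.68 ± 0.44 (adjusted p = 0.00285) in GLOBINclear and -2.32 (adjusted p = 0.0287) in whole RNA. Among the other strains Irf7 averaged 4.73 in 129S1/ImJ and 7.30 to 9.19 in A/J, C3H/HeJ and C57Bl/6J. Ifit1 read 4.45, 4.71 and 4.13 in FVB/NJ, against 6.36, 6.32 and 6.89 in DBA/2J (-2.09 ± 0.52, adjusted p = 0.0483). Ifitm3, a membrane protein that hinders virus entry, read 10.04, 9.09 and 9.68 in FVB/NJ, against 10.41, 10.51 and 10.76 in DBA/2J (-0.95 ± 0.24, adjusted p = 0.0474). Samd9l, the fourth and named after its value was seen, differed by -1.52 (adjusted p = 0.0495). In whole RNA 26 members were lower and 15 higher, with 9 lower and 3 higher without overlap. No share of all genes is given beside these counts. The median in whole RNA was -0.03 (0.04 over all genes), and Irf7 was the sole call. Ifit1 differed there by -0.94 (adjusted p = 0.427), Ifitm3 by -0.75 (adjusted p = 0.557) and Samd9l by -0.61 (adjusted p = 0.704).

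Irf7 passed whichever single FVB/NJ or DBA/2J array was left out. Ifit1 did not: its adjusted p lay between 0.0791 and 0.178 over the 6 choices. Ifitm3 lost its call without FVB/NJ replicate 2 or 3 and without any DBA/2J array. The list's count of 4 became 1 with arrays centred on their medians or on the spike-in controls, and 1 or 2 with any array left out (2 without FVB/NJ replicate 1 or 2, 1 without FVB/NJ replicate 3 or any DBA/2J replicate). Other members sat at the bottom of the scale in both strains. Mx1, an antiviral GTPase, read 3.12 to 3.18 in FVB/NJ and 3.15 to 3.18 in DBA/2J, and Stat2 differed by 0.00. Rsad2, the antiviral enzyme viperin, differed by -0.22 without passing, and Ifit2 by 0.17 with overlapping arrays. Interferon-inducible GTPases and Ifi200 genes gave 0 calls of 17 in limma (1 at an unadjusted p under 0.05). Xaf1, an interferon-induced factor linked to cell death, differed by -0.83 without passing on its brightest probe set, whereas another averaged 3.36 in FVB/NJ and 11.23 in DBA/2J (-7.87, adjusted p = 1.26e-08). It is named after its values were seen.

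Class I genes, which nearly all blood cells carry, gave 0 calls of 20 in limma (3 at an unadjusted p under 0.05) and a median of -0.05, against 3 of 10 and -2.04 for class II. H2-D1 and H2-K1, the heavy chains, averaged 11.37 and 11.09 in FVB/NJ, against 10.50 and 10.25 in DBA/2J, and did not pass (adjusted p = 0.238 and 0.339). The probe sets of H2-D1 disagree. On 3 others, named after their values were seen, FVB/NJ averaged 3.57, 3.21 and 3.94, against 10.55, 9.92 and 9.87 in DBA/2J (-6.98, -6.71 and -5.92, adjusted p = 1.89e-11, 7.72e-11 and 5.6e-09). A/J read like DBA/2J on these 3, with 9.65 to 10.47, and the other 3 strains averaged 3.18 to 4.68. The other 4 probe sets gave no call and differed by -0.02 to 1.08, so no direction holds for the gene. Of 20 complement and Fc receptor genes 2 passed, both lower (against 0.951% of all genes), Cr2 and Cd59a. Cd59a, which blocks the membrane attack complex on red cells, read 7.15, 7.59 and 7.21 in FVB/NJ, against 9.42, 9.01 and 9.58 in DBA/2J (-2.02 ± 0.38, adjusted p = 0.0089). The arrays did not overlap, a second Cd59a probe set was lower too (-1.53, adjusted p = 0.00409), and in whole RNA the difference was -2.51 (adjusted p = 0.0203). Across the other strains Cd59a averaged 4.84 in 129S1/ImJ to 9.91 in A/J.

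Genes of the red cell and platelet side gave few calls. In GLOBINclear RNA 10 of 32 redox genes, 7 of 31 erythroid genes and 5 of 27 platelet markers were higher without overlap (background 8.39%). The counts lower without overlap were 2, 2 and 1 (background 11.4%). Of 24 red cell membrane genes 4 were higher and 3 lower without overlap. List medians in whole RNA were 0.17 for redox, 0.29 for erythroid, 0.44 for platelet and 0.49 for membrane genes (0.04 over all genes). Redox and glutathione genes had 2 higher and 0 lower calls of 32 (against 1.40% and 0.951% of all genes) and a median of 0.23. Without FVB/NJ replicate 2 they had 2 higher and 2 lower calls and a median of 0.147, and without FVB/NJ replicate 3 the median was 0.103. Without DBA/2J replicate 1 or 2 a single higher call was left. Gpx4, which reduces lipid peroxides, read 11.91, 12.54 and 11.97 in FVB/NJ, against 11.05, 11.17 and 11.31 in DBA/2J (0.96 ± 0.18, adjusted p = 0.00742), and FVB/NJ lay above all other GLOBINclear arrays. Gstt1, a glutathione transferase, read 5.66, 7.54 and 5.82 in FVB/NJ, against 4.30, 4.29 and 5.03 in DBA/2J (1.80 ± 0.40, adjusted p = 0.025). Replicate 2 was the highest FVB/NJ array for both. Gstt1 lost its call without DBA/2J replicate 1 or 2 (adjusted p = 0.101 and 0.12), and in whole RNA its arrays overlapped. Prdx2, the main peroxiredoxin of red cells, differed by 0.43 without passing in GLOBINclear RNA (adjusted p = 0.0709) and by 1.28 in whole RNA, where it passed (adjusted p = 0.000322).

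Selp, the platelet granule adhesion molecule P-selectin, was the sole call among 27 platelet markers (1 higher and 0 lower, against 1.40% and 0.951% of all genes). It read 5.71, 6.05 and 5.82 in FVB/NJ, against 4.21, 3.22 and 3.71 in DBA/2J (2.15 ± 0.45, adjusted p = 0.0166). The call was lost without FVB/NJ replicate 2 or 3 or DBA/2J replicate 2 or 3 (adjusted p between 0.0522 and 0.0971), and a second Selp probe set differed by 0.54 without passing. The other platelet genes differed by -0.45 to 0.82. Bcl2l1, which encodes the survival factor Bcl-xL of late erythroid cells, read 11.11, 11.86 and 11.03 in FVB/NJ, against 10.56, 10.59 and 10.18 in DBA/2J (0.89 ± 0.22, adjusted p = 0.0453). Bcl11a, a repressor of embryonic globin genes that B cells express too, was lower, with 4.19, 3.60 and 3.48 in FVB/NJ, against 4.54, 4.71 and 5.05 in DBA/2J (-1.01 ± 0.25, adjusted p = 0.049). Fth1, the ferritin heavy chain that stores iron, read 14.44, 14.43 and 14.36 in FVB/NJ, against 14.07, 14.06 and 14.02 in DBA/2J (0.36 ± 0.09, adjusted p = 0.0475). All 3 were close to the threshold: Bcl2l1 lost its call without any array but FVB/NJ replicate 3, Bcl11a without any but FVB/NJ replicate 1, and Fth1 whichever of the 6 was left out. Bcl2l1 and Bcl11a were the 1 higher and 1 lower call of 31 erythroid genes. Fth1 was the sole call, higher, of 22 heme and iron genes (all genes 1.40% higher and 0.951% lower). Globins and red cell membrane genes gave 0 calls of 5 and of 24 in limma (0 and 4 at an unadjusted p under 0.05). The same held for chemokines, cytokines and their receptors (0 of 40, 7 at an unadjusted p under 0.05), immediate early and heat shock genes (0 of 31, 6), eosinophil, basophil and mast cell markers (0 of 10, 1), muscle markers (0 of 9, 1) and endothelial markers (0 of 4, 0).

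Cytosolic ribosomal proteins gave 1 higher and 2 lower calls of 41 (against 1.40% and 0.951% of all genes), and 20 lay lower without overlap (background 11.4%). The list median was -0.27. In whole RNA 21 members were lower and 20 higher, with a median of -0.01 (0.04 over all genes). Without overlap 8 were lower and 3 higher there, and no share of all genes is given beside these counts. Rps14 read 12.31, 12.34 and 12.26 in FVB/NJ, against 12.66, 12.69 and 12.63 in DBA/2J, a small and tight difference of -0.36 ± 0.06 (adjusted p = 0.00479). Rps19 differed by -1.16 ± 0.28 (adjusted p = 0.0403) and Rps6, whose probe set was dim, by 1.63 ± 0.37 (adjusted p = 0.0264). Rps19 lost its call without any array but FVB/NJ replicate 1, and Rps6 without any but FVB/NJ replicate 3. In whole RNA the 3 changes were -0.32, -0.99 and 0.11, none past the threshold. With arrays centred on the spike-in controls none of the 3 passed, as Rps14 was at -0.32 (adjusted p = 0.706), Rps19 at -1.13 (adjusted p = 0.231) and Rps6 at 1.67 (adjusted p = 0.119).

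**Figure D3:**
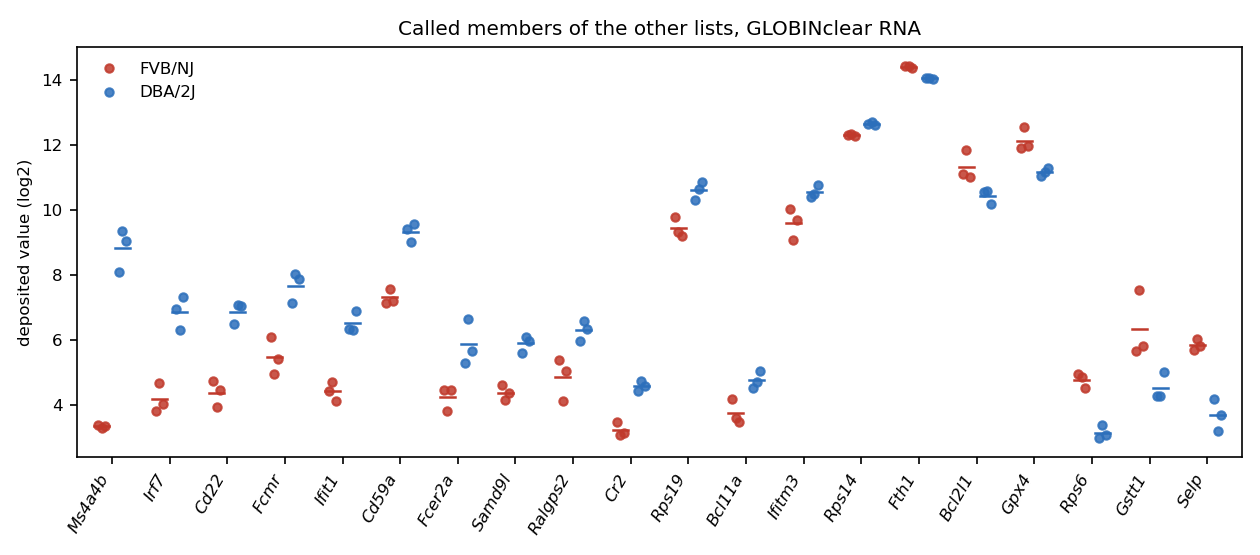
Deposited log2 values in GLOBINclear RNA of the 20 called members of the lists other than MHC class II and strain alleles. Points are FVB/NJ arrays (red, left) and DBA/2J arrays (blue, right), with group means as lines. Genes are ordered by their difference, from Ms4a4b at -5.48 to Selp at 2.15, and the arrays of the strains do not overlap for any of them.

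Several of the largest differences were seen in genes at the bottom of the scale in FVB/NJ or in DBA/2J. Gdpd3, a lysophospholipase D that makes lysophosphatidic acid, read 12.88, 12.85 and 12.89 in FVB/NJ, against 2.13, 2.12 and 2.21 in DBA/2J. The difference of 10.72 ± 0.14 (adjusted p = 2.99e-16), 1690-fold on this scale, was the largest of all tested probe sets, and in whole RNA it was 11.27. Gdpd3 was also high in 129S1/ImJ (13.40) and at 2.11 to 2.16 in A/J, C3H/HeJ and C57Bl/6J. Mlycd, the enzyme that breaks down malonyl-CoA, read 2.67, 2.59 and 2.68 in FVB/NJ, against 8.86, 8.15 and 8.51 in DBA/2J (-5.86 ± 0.14, adjusted p = 1.2e-12). For Mlycd it was DBA/2J that differed from all others, which averaged 2.57 to 2.80. Josd2, a deubiquitinase, read 9.58, 9.84 and 9.46 in FVB/NJ, against 6.03, 5.44 and 6.08 in DBA/2J (3.78 ± 0.51, adjusted p = 0.0005), and the other strains spread between 3.96 and 10.05.

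Pck2, the mitochondrial enzyme that makes phosphoenolpyruvate, read 10.06, 10.90 and 10.44 in FVB/NJ, against 8.55, 7.78 and 8.57 in DBA/2J. The FVB/NJ arrays were above all others, the difference was 2.17 ± 0.45 (adjusted p = 0.0161), and a second probe set differed by 1.88 (adjusted p = 0.00525). Its call was lost without FVB/NJ replicate 2 or 3 or DBA/2J replicate 2 (adjusted p between 0.0526 and 0.0946). These genes and H2-Ea were the 3 higher and 2 lower calls of 32 tested genes listed for strain alleles or copy number. Of all genes 1.40% were called higher and 0.951% lower. The list was drawn up with results of these arrays known, so its count tests nothing against that share. Alad, a heme enzyme whose copy number varies between strains, averaged 7.20 in FVB/NJ and 7.04 in DBA/2J, and Glo1, another such gene, averaged 9.04 in FVB/NJ and 10.26 in DBA/2J (difference -1.22, adjusted p = 0.168).

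For several genes the FVB/NJ arrays stood above all other GLOBINclear arrays. Slc15a2, a proton-coupled peptide transporter, read 6.35, 6.11 and 6.17 in FVB/NJ, against 2.63, 2.64 and 2.62 in DBA/2J (3.58 ± 0.33, adjusted p = 9.31e-06), and the other strains averaged 2.63 to 3.51. The predicted gene Gm10451 read 6.72, 6.05 and 7.19 in FVB/NJ, against 3.55, 3.51 and 3.54 in DBA/2J (3.12 ± 0.20, adjusted p = 1.67e-07). Accsl and Rabif, an interactor of Rab GTPases, were higher by 2.74 and 2.64, again with FVB/NJ above all other GLOBINclear arrays. Itih4, an inter-alpha-trypsin inhibitor chain, read 5.17, 5.22 and 5.36 in FVB/NJ, against 2.43, 2.62 and 2.59 in DBA/2J (2.70 ± 0.20, adjusted p = 1.08e-06).

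For other genes DBA/2J was the low strain, or the strains fell into several levels. Edem1, which sends misfolded glycoproteins to degradation, read 9.23, 8.29 and 9.25 in FVB/NJ, against 5.85, 6.04 and 6.38 in DBA/2J (2.84 ± 0.24, adjusted p = 4.99e-06), and the other strains averaged 7.76 to 8.98. Rabgap1l, a Rab GTPase-activating protein, was higher by 2.78 ± 0.26 (adjusted p = 9.72e-06) with DBA/2J again below all other arrays. A second probe set of each gene was called the same way, at 2.27 for Edem1 and 2.16 for Rabgap1l, while 2 more of Rabgap1l differed by -0.59 and -0.42 without passing. Zc3h14, which binds poly(A) RNA, was higher by 2.75, the ER membrane protein Nomo1 by 2.65, the predicted gene Gm10419 by 3.02 and the transcription factor Atf2 by 3.18 (adjusted p = 0.00232). For Atf2 the other 4 tested probe sets gave no call and differed by -0.14 to 0.63.

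Among the genes lower in FVB/NJ, Naa16, an auxiliary subunit of the N-terminal acetyltransferase NatA, read 4.78, 3.999 and 4.86, against 8.56, 8.91 and 8.91 in DBA/2J (-4.24 ± 0.23, adjusted p = 2.3e-08). DBA/2J was the strain apart, as the other strains averaged 4.13 to 4.42. The unnamed transcript E330020D12Rik had the same pattern and differed by -4.33 ± 0.34. Sult4a1, a sulfotransferase-like protein known from brain, read 2.96, 3.08 and 2.95 in FVB/NJ, against 7.51, 7.29 and 7.70 in DBA/2J (-4.50 ± 0.40, adjusted p = 6.72e-06), and 129S1/ImJ averaged 7.24 while the other 3 strains were at 2.95 to 2.97. Borcs5, a subunit of the BORC complex that positions lysosomes, read 3.54, 3.52 and 3.35 in FVB/NJ, against 6.66, 6.56 and 7.10 in DBA/2J (-3.30 ± 0.57, adjusted p = 0.00458). Here FVB/NJ was below all other GLOBINclear arrays, and the other strains averaged 6.37 to 6.92. Capn3, a calcium-dependent protease, Gpaa1, a subunit that attaches GPI anchors, and Ncoa7, a nuclear receptor coactivator, were lower by -3.43, -3.39 and -3.38 (adjusted p = 4.52e-05, 4e-06 and 0.00823). A second probe set was lower for Capn3 (-1.18, adjusted p = 0.0481), and those of Gpaa1 and Ncoa7 gave no call at -0.35 and 0.01.

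**Figure D4:**
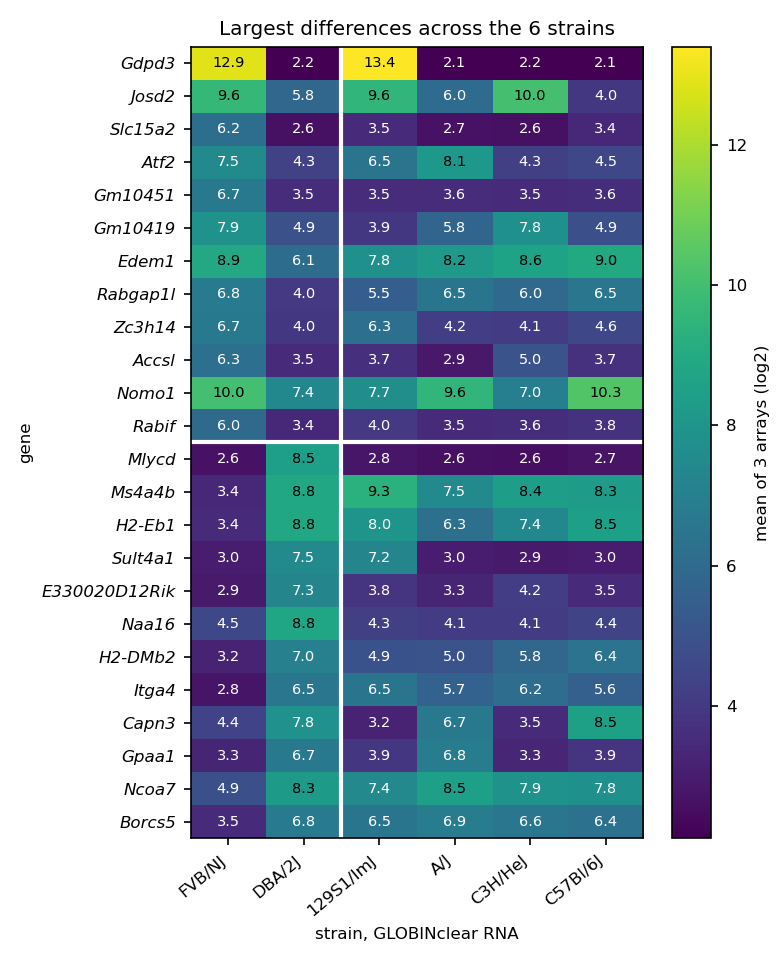
Mean log2 value of 3 GLOBINclear arrays per strain for the 12 genes with the largest higher and the 12 with the largest lower difference, with FVB/NJ and DBA/2J in the left columns and the other 4 strains to the right. Slc15a2, Gm10451, Accsl and Rabif are highest in FVB/NJ, Mlycd, Naa16 and E330020D12Rik are highest in DBA/2J, and Gdpd3 is high in FVB/NJ and 129S1/ImJ.

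Whole RNA of the same mice gave the same sign for 247 of the 267 called genes, called 76 of them in the same direction and 0 in the opposite one (limma; also 0 at an unadjusted p under 0.05). On its own it called 129 of 11353 genes (1.14%; 0.784% higher and 0.352% lower) and 250 probe sets (1.11%). Without FVB/NJ replicate 3, DBA/2J replicate 1 or DBA/2J replicate 3 the probe set counts were 137, 127 and 131. Arrays did not overlap in both preparations, in the same direction, for 161 of the 267 genes (97 higher, 64 lower). All 267 were already apart in GLOBINclear RNA, and of the 2251 tested genes apart there, 670 (29.8%) were apart in both. The difference between FVB/NJ and DBA/2J itself differed between the preparations for 179 probe sets (0.795%) and 91 genes (0.802%). That count was 100 without FVB/NJ replicate 3 and 87 without DBA/2J replicate 3. Itih4 was an example, with 2.91 in FVB/NJ and 2.68 in DBA/2J in whole RNA, where the GLOBINclear difference was 2.70 (difference between preparations 2.47 ± 0.22, adjusted p = 4.02e-05).

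**Figure D5:**
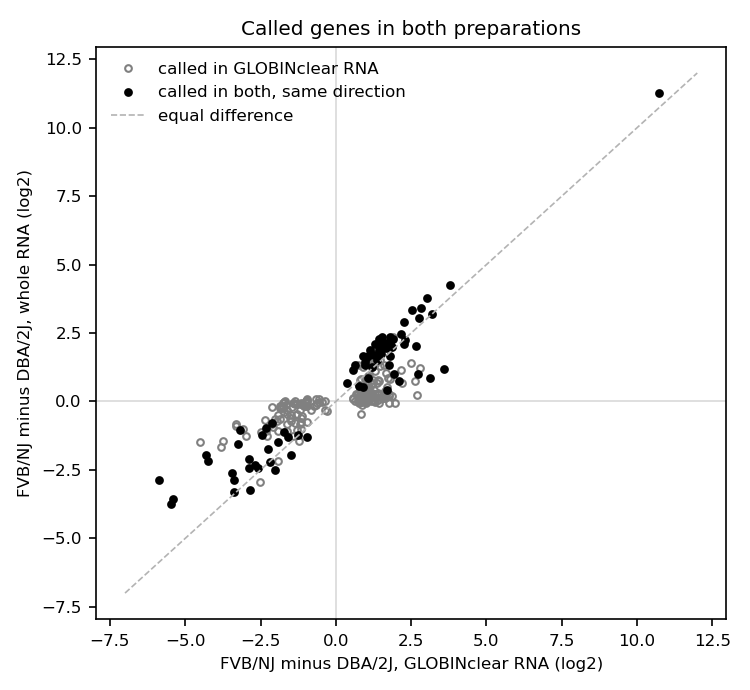
Difference between FVB/NJ and DBA/2J (log2, positive where FVB/NJ is higher) of the 267 called genes in GLOBINclear RNA (x axis) and whole RNA (y axis). Filled points (76 genes) passed in both preparations, open points did not pass in whole RNA, and many lie closer to 0 on the y axis than the dashed line of equal difference.

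Called genes were spread over the genome, with the highest percent on chromosome 2 (3.7% of 864 genes tested) and the lowest among autosomes on chromosome 13 (0.658% of 456). Runs of 3 or more called genes, each within 1 Mb of the next, were listed by order in the RefSeq gene table, and 8 were found. Of all tested genes 2.35% were called. A run starts and ends at called genes, so its share is raised by how it was found and tests nothing about the region. The longest lay on chromosome 17 in and around the MHC, with 7 called of 53 tested genes and all 7 lower in FVB/NJ. Beside H2-DMb2, H2-Eb1 and H2-Ea it held Marchf2, D17H6S56E-5, Sapcd1 and Clic1, which differed by -0.47, -2.97, -1.29 and -1.19 and are named after their values were seen. Other probe sets of Marchf2 gave no call and differed by 1.09, -0.08 and 0.00, so no direction holds for that gene. On chromosome 2, Scand1, Rab5if, Ndrg3 and Src were all higher, by 0.83 to 1.41, as 4 called of 18 tested genes, and close to them E2f1, Raly and Map1lc3a were higher by 1.81 to 1.91, as 3 of 9. The neighbours Ifitm3 and Irf7 fell into a run on chromosome 7 with 3 called of 25 tested genes. The remaining called gene, Mob2, was higher in FVB/NJ and is named after its value was seen.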

How the data were processed

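RNA of peripheral blood was measured on 36 Affymetrix arrays. For each array the authors deposited 1 log2 value for each of 45101 probe sets. Affy, MAS5 and GCRMA are the tools listed, unversioned, by the submitters' processing notes. The log2 scale was read from the values, and the labels leave unstated whether both preparations went through normalization together. Groups came from the array titles. Mice were separate animals per the labels.

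Probe sets with a mean over all 36 arrays above the median of those means (log2 2.89) were tested, 22518 in all, with 64 control sets left out. Symbols came from the platform's annotation (34945 probe sets with 1 symbol, 932 with several, 9160 with none). Of these, 34741 matched RefSeq's GRCm38.p6 gene table by Entrez number, and 0 symbols changed. The probe set with the highest mean stood for a gene, for 11353 tested genes. FVB/NJ minus DBA/2J was fitted with limma 3.58.1 in R 4.3.3 (lmFit, eBayes with intensity trend) on all 18 arrays of a preparation, whose 6 strains share 1 estimate of the spread. The difference between preparations was fitted on 36 arrays with the mouse as a block. P-values were adjusted by Benjamini-Hochberg over all tested probe sets, with 0.05 as the threshold. The fits were tested on simulated data. The number of arrays limits the precision, with 3 mice per strain. Figures were drawn with matplotlib.

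The whole and GLOBINclear arrays pair by mouse per the series' design text. Deviations from the strain means of same-numbered arrays of the 2 preparations correlated at 0.393, 0.65 and 0.425 in FVB/NJ. In DBA/2J they correlated at 0.236, 0.162 and -0.078, so the values do not show the pairing for DBA/2J replicate 3. The mouse block rests on the design text there. Deviations from the strain means of same-numbered mice of the 2 strains correlated at -0.289, -0.398 and -0.056, so those numbers do not pair mice across strains. Named genes were the 12 largest higher and 12 largest lower called differences without overlap in both preparations, up to 3 called members per list, called strain allele genes and the 4 smallest p-values for the difference between preparations, 43 in all. Others are said to be named after their values were seen. The comparison, the 24 lists and the rule were chosen with earlier results of these data known. Alternatives were other filters, scalings, variance priors and samples, with each replicate left out in turn.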

Additional observations from a re-analysis of the deposited data

Results flagged for a closer look

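The difference between FVB/NJ and DBA/2J itself differed between GLOBINclear and whole RNA for 179 probe sets (limma, mouse as a block), with GLOBINclear minus whole above 0 for 85 and below 0 for 94. Of the named genes 13 were among them. Most had been chosen for a large difference in GLOBINclear RNA, so nothing is read from which preparation had the larger one. The GLOBINclear difference exceeded that in whole RNA by 2.28 for Gm10451 (adjusted p = 6e-06), 2.47 for Itih4, 2.39 for Slc15a2, 1.88 for Rabif and 1.73 for Accsl, all higher in FVB/NJ. For genes lower in FVB/NJ it was more negative by -3.03 for Sult4a1 (adjusted p = 7.99e-06), -2.99 for Mlycd, -2.42 for Borcs5, -2.35 for E330020D12Rik, -2.31 for Itga4, -2.07 for Naa16, -1.73 for Ms4a4b and -1.37 for Cr2.

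In whole RNA Mlycd averaged 2.70 in FVB/NJ and 5.57 in DBA/2J, Sult4a1 averaged 3.08 in FVB/NJ and 4.55 in DBA/2J, and Gm10451 averaged 4.46 in FVB/NJ and 3.62 in DBA/2J. For Cr2 whole RNA gave 3.14 in FVB/NJ and 3.10 in DBA/2J, both at the bottom of the scale.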

How the results depend on the processing

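With arrays centred on the hybridization spike-ins, 341 probe sets were called in GLOBINclear RNA instead of 545, and the cause was not tested. The other filters, scalings and fits, and the mean of both preparations, gave 390 to 633. Leaving out a replicate gave 296 to 499 for GLOBINclear RNA, 251 to 394 at 2-fold or more (main value 422), 127 to 255 for whole RNA (main value 250) and 87 to 153 for the difference between preparations (main value 179). Whole RNA gave 458 with a mean of at least log2 4 and 83 with only the arrays of FVB/NJ and DBA/2J, which leave fewer degrees of freedom. The cause of the first of these was not tested. Of the calls in GLOBINclear RNA 57.2% were higher in FVB/NJ, against 41% with only the arrays of the 2 strains (160 higher, 230 lower) and 54.2% to 62.2% under the scalings. With the replicate number as a block the counts were 524 in GLOBINclear RNA, 404 at 2-fold or more and 243 in whole RNA, and 147 without the mouse block for the difference between preparations (179 with it). The numbers do not pair the strains, and 6 of 43 named genes lost their call with that block. Of the named genes 10 lost their call with spike-in centring and 9 with no filter, and 0 changed sign under the alternatives run. The mean of both preparations at 2-fold or more (354) and the list counts without single replicates were added after seeing the data. With 3 mice a strain, differences near the threshold depend on single arrays, and values at the bottom of the scale bound no fold.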
